A study of Mus musculus with 12 samples.

Results

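Untreated optic nerves of male C57Bl/6 mice, given the agent label Control, supplied 3 of the 12 samples of a study of white-matter ischaemia. The other 9 nerve samples received OGD, alone or with CX-4945 or MS-275, and are not compared here. The 3 were chosen by the agent label, and the rows described are the 566 endogenous mouse miRNA probes of the panel. Nerves were isolated from the animal before small RNA was prepared. The sources used here state neither age, nor time between isolation and extraction, nor how many nerves or animals each sample pooled, so the spread between samples may be technical in part. Each sample was read in a single lane of an nCounter miRNA panel, which counts colour-coded tags hybridised to each target without amplification.

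A miRNA is cut from a hairpin precursor, and one or the other strand of the hairpin is loaded into an Argonaute protein. The loaded strand finds messenger RNAs mainly through its seed, bases 2 to 8, so miRNAs with the same seed form a family with overlapping targets. The optic nerve is a white-matter tract of retinal ganglion cell axons, myelinating oligodendrocytes, astrocytes, microglia and vessels, and the neuronal cell bodies lie in the retina.

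The sequences below belong to the miRNAs that carried most of the count, with the seed in capitals so that the families can be seen. They are the mature strands, 5′ to 3′, in RefSeq's annotation of GRCm38.p6. The let-7 members share the seed GAGGUAG and differ only outside it or at the first base.
let-7g: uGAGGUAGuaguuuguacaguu
let-7d: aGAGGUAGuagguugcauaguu
let-7b: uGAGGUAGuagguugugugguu
let-7c: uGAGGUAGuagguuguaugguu
let-7i: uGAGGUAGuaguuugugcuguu
let-7a: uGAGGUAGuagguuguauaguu
The miR-125, miR-181, miR-15/16, miR-29 and miR-99/100 families each have a seed of their own.
miR-125b-5p: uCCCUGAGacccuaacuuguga
miR-125a-5p: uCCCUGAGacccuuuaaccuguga
miR-181a: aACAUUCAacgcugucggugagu
miR-181c: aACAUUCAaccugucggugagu
miR-16: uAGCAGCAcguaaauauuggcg
miR-15a: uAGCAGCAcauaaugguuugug
miR-29b: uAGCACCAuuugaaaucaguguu
miR-29a: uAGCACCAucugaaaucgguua
miR-29c: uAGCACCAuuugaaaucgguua
miR-99a: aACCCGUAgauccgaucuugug
miR-100: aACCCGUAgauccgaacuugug
Several other abundant miRNAs were the only probe of their seed on the panel with a matched sequence.
miR-338-3p: uCCAGCAUcagugauuuuguug
miR-219: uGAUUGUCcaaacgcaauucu
miR-126-3p: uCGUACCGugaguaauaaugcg
miR-22: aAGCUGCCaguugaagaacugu
miR-9: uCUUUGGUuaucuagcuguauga
miR-135a: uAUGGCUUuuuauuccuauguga
miR-204: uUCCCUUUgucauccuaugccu

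The mouse miRNA count was 302026 in Control replicate 1, 302003 in replicate 2 and 374440 in replicate 3, summed over 566 mouse probes. A probe was called detected when its count exceeded the mean plus 2 SD of the 8 negative controls of its lane, a limit of 32.0 to 33.7 counts. In all 3 lanes 188 probes, or 33.2% of the panel, were detected, and 348 exceeded the limit in no lane. The 188 held 98.6% ± 0.100 of the count (SD, n = 3), and 0 of 33 viral probes were detected. The 3 positive controls for the ligation step, in which each small RNA receives its tag, had geometric means of 1386, 1422 and 2369 counts in replicates 1, 2 and 3. Replicate 3 therefore had both the highest ligation counts and the highest total, and its part in the differences between lanes was not tested. Probes differ in how well they ligate and hybridise, so ranks between probes are ranks of counts, not of molecules per cell. Fewer cells of a type and less RNA per cell cannot be told apart in such whole-nerve samples.

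A small set of miRNAs made up most of the count. The 10 most abundant probes by mean share held 48.1% ± 0.648 of it, the 20 most abundant 69.6% ± 0.748, and the 100 most abundant 96.0% ± 0.151. In each lane on its own, 11 probes were enough to pass 50%. Of the detected probes, 10 had a mean above 10000 counts, 39 lay between 1000 and 10000, 81 between 100 and 1000, and 58 below 100. Those 58 together held 1.23% ± 0.0504 of the count. The highest detected mean was 599 times the lowest.

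**Figure D1:**
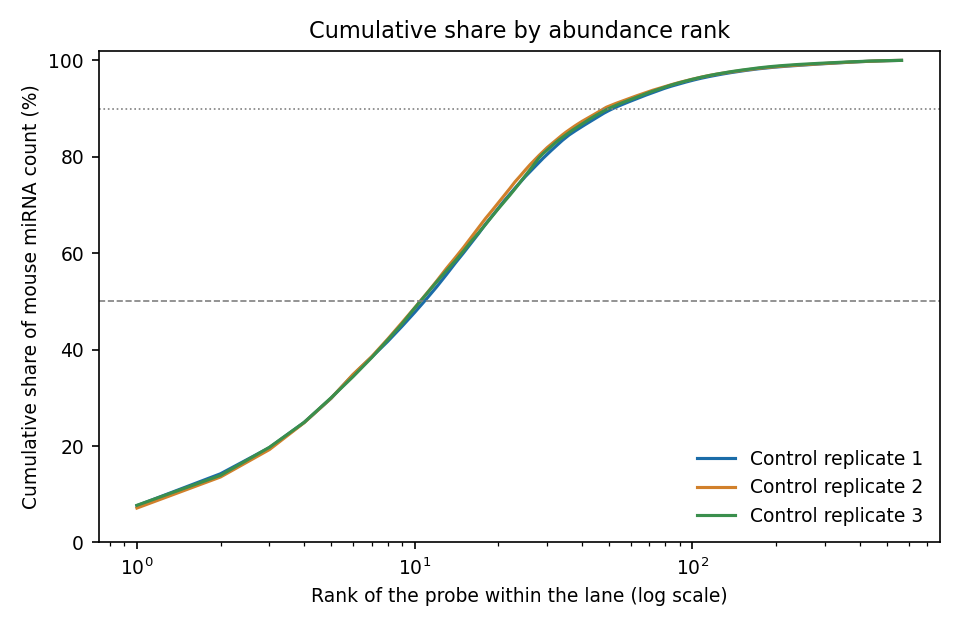
Cumulative share of the mouse miRNA count (%, vertical axis) against the rank of each probe within its lane (log scale, horizontal axis), with 1 line for each Control sample. The dashed line marks 50%, reached at 11 probes in every lane, and the dotted line marks 90%, reached at 49 to 52 probes.

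miR-181a, an abundant miRNA of brain and lymphocytes, and miR-125b-5p, which targets regulators of cell survival and differentiation, stood at the top. miR-181a had 23035, 21538 and 23294 counts in replicates 1 to 3, a share of 6.99% ± 0.713. miR-125b-5p had 19997, 19464 and 28824 counts, a share of 6.92% ± 0.678. miR-181a was first in replicates 1 and 2 and miR-125b-5p in replicate 3, so these neighbours do not differ beyond their spread.

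The third place went to miR-720, a name later withdrawn from miRBase as a probable tRNA fragment. It had 15815, 16828 and 21786 counts, and RefSeq's gene table has no miRNA of that name. let-7g, of the family that restrains proliferation and promotes differentiation, followed with 16356, 17180 and 19338 counts. Their order changed between lanes as well.

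miR-338-3p, which is needed for oligodendrocyte maturation and myelination, followed let-7g with 14781, 14901 and 19092 counts. Its share of 4.98% ± 0.109 varied little, with a coefficient of variation (CV, SD over mean) of 2.18% between samples. miR-219, its partner in oligodendrocyte differentiation, had 7790, 9318 and 14782 counts and a share of 3.20% ± 0.692. Replicate 3 stood above the other lanes for miR-219, and the CV was 21.6%. miR-126-3p, the main endothelial miRNA, came next with 9397, 10277 and 10593 counts.

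Of the other let-7 members in the first 20, let-7d was the most abundant, with 15057, 15327 and 16439 counts. let-7b had 11054, 11063 and 13790 counts, let-7c 9862, 11126 and 12383, and let-7i 8233, 8612 and 9768. let-7a, lower in the list, had 5887, 6798 and 7704. miR-16, which represses cell-cycle genes, had 8751, 8098 and 12274 counts.

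The neural miRNAs miR-9 and miR-124 were also in this set. miR-9, expressed in neural progenitors and neurons, had 7249, 5625 and 7604 counts, and miR-124, the most abundant miRNA of neurons, had 5884, 6115 and 7754. miR-22, miR-27a, miR-30c, miR-151-5p and miR-135a completed the set. miR-22 had 7609, 7832 and 8578 counts and miR-27a, nearly flat in raw count, 6465, 6476 and 6448. The share of miR-27a was 2.14%, 2.14% and 1.72% in replicates 1 to 3. Of the 19 neighbouring pairs in the first 20, 6 kept their order in all 3 lanes. The lanes shared 18 of their 20 most abundant probes.

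**Figure D2:**
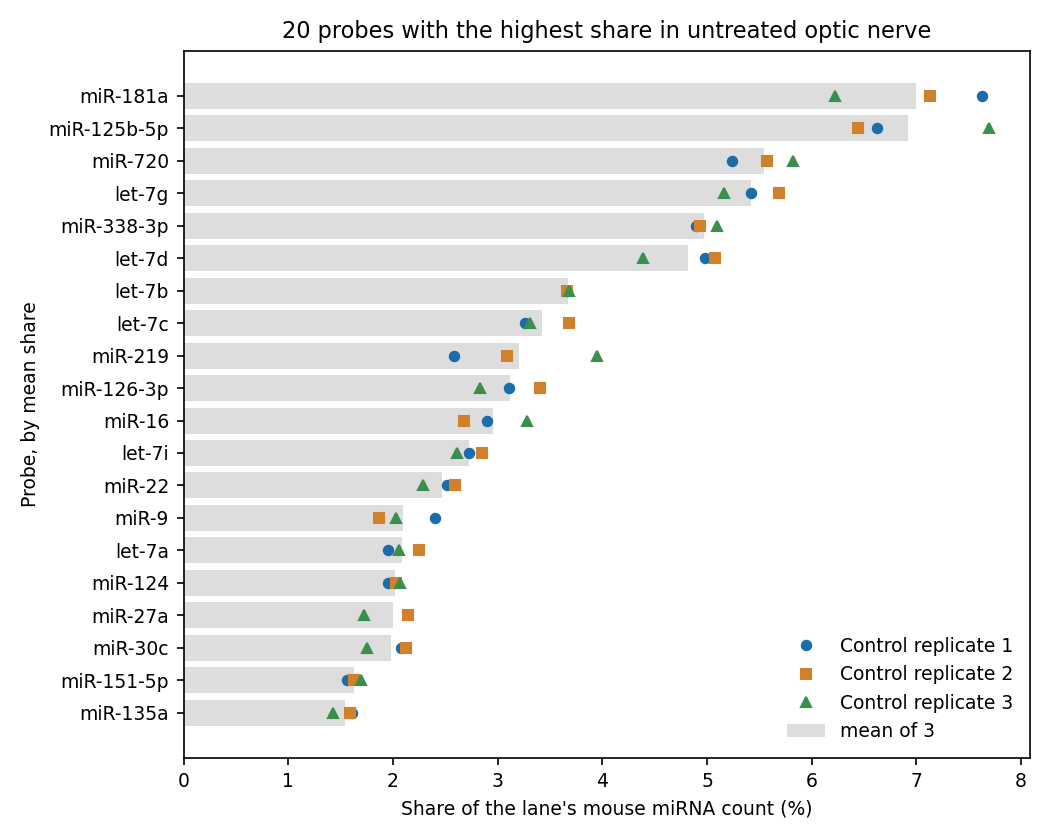
Share of the lane's mouse miRNA count (%, horizontal axis) for the 20 probes with the highest mean share (vertical axis), where bars are means of 3 and points are the Control samples. miR-181a and miR-125b-5p change places between lanes, miR-338-3p varies little, and miR-219 is highest in replicate 3.

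Summed by seed, the let-7 family was the largest single component. Of the 188 detected probes, 144 had a matched mature sequence, falling into 107 seeds, and 17 seeds had more than 1 detected probe. All 10 matched panel probes with the let-7 seed were detected, and together they held 23.7% ± 0.962 of the count. let-7g made up 22.9% ± 0.207 of that sum. The smallest was miR-1961, in the family by seed but not by name, with 70, 72 and 84 counts. The largest mean was 234 times that of miR-1961. By name, the 9 let-7 and miR-98 probes also held 23.7% ± 0.962. The smallest of these was miR-98, with 493, 525 and 629 counts. Close members such as let-7b and let-7c can share signal on a hybridisation panel, so the sum is firmer than its parts.

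The miR-125 seed CCCUGAG came second with 8.44% ± 0.565, of which miR-125b-5p made up 81.9% ± 2.60. The miR-181 seed ACAUUCA held 7.07% ± 0.715, and miR-181a alone made up 98.8% ± 0.128 of it. miR-181c had only 189, 174 and 212 counts, and the probe for miR-181b and miR-181d had 76, 50 and 91. The sequences above show that miR-181a and miR-181c differ only after the seed, while miR-181a had the highest mean share on the panel. Over the seed, the highest mean was 313 times the lowest.

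The miR-15/16 seed AGCAGCA, shared by repressors of cyclins and BCL2, held 4.60% ± 0.225 over 4 detected probes. miR-16 led it, followed by miR-15a (3632, 3329 and 3426 counts), miR-15b (1395, 1228 and 1580) and miR-322 (490, 463 and 481). The miR-29 seed AGCACCA, whose targets include collagens and which is high in astrocytes, held 3.07% ± 0.630. Its members had near-equal means, with a highest to lowest ratio of 1.15. The miR-29a and miR-29c sequences above differ at a single base, so these close members can share signal too. miR-29b had 2857, 2956 and 5132 counts, miR-29a 2683, 2812 and 4617, and miR-29c 2482, 2584 and 4473. All 3 were highest in replicate 3, in share as in count, as were the shares of 79 of all 188 detected probes.

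The miR-99/100 seed ACCCGUA, which represses mTOR signalling, held 2.67% ± 0.115. The miR-30 seed GUAAACA held 2.25% ± 0.163, and by name the 5 miR-30 probes held 2.46% ± 0.132. The 8 largest seed families, counting the single-probe seeds of miR-338-3p, miR-219 and miR-126-3p, together held 58.2% ± 0.583 of the count and 25 of the detected probes.

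**Figure D3:**
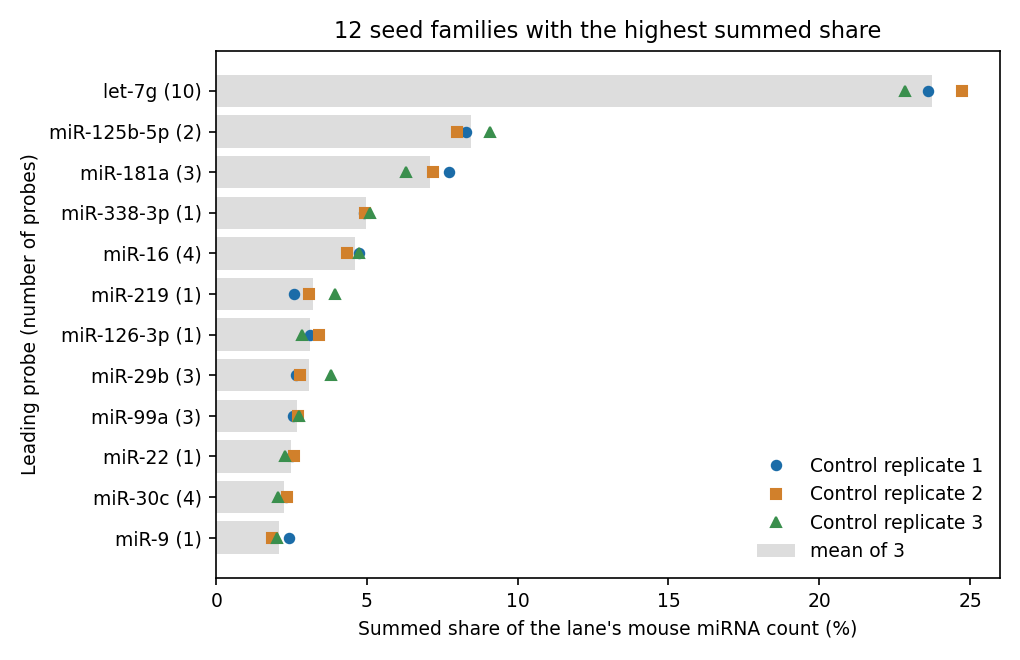
Summed share of the lane's mouse miRNA count (%, horizontal axis) for the 12 seed families with the highest sum, named by their leading probe with the number of matched panel probes in brackets. Bars are means of 3 and points are the Control samples. The let-7 family lies between 22.8% and 24.7% in the 3 lanes, and every other family is below 10%.

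Mature sequences of detected probes began with U in 77 of 141 cases (54.6%), against 52 of 152 (34.2%) for matched probes above the limit in no lane. Among the 17 of the first 20 with a matched sequence, 14 began with U. A 5′ U is the base that Argonaute proteins bind best, and whether this bears on the difference was not tested. The probes are not independent, since members of a family can begin alike. The median GC content was 45.5% for detected and 52.4% for undetected sequences. Across the 141 detected probes the Spearman correlation of GC content with mean count was -0.32, given as a description since probe behaviour also depends on base composition. Of detected miRNAs with 1 position in the sequence table, 62 of 117 (53.0%) lay within the span of a protein-coding gene, whichever strand that gene is on, against 95 of 148 (64.2%) of the undetected. These are not independent loci either, since both strands of a precursor, or several miRNAs within the same gene, are counted separately. let-7g lay within Wdr82, miR-338-3p within Aatk, miR-126-3p within Egfl7 and miR-204 within Trpm3.

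Both strands of a precursor were on the panel for 53 precursors with a matched RefSeq hairpin. Both were detected for 9 of them, only the 5p strand for 5, only the 3p strand for 6, and neither for 33. Over all 566 probes 33.2% were detected. Ratios were taken per lane on counts less the mean of the negative controls. The 5p strand was higher in all 3 lanes for 4 of the 9 and the 3p strand for the other 5, and the higher strand exceeded the lower by more than 4-fold for 6.

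The widest gap was that of the oligodendrocyte precursor miR-338, at chr11:120014781-120014802 for the 3p and chr11:120014816-120014837 for the 5p strand, both on the minus strand of GRCm38.p6. Its strands are shown with their seeds in capitals.
miR-338-3p: uCCAGCAUcagugauuuuguug
miR-338-5p: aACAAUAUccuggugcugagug
miR-338-5p had 39, 41 and 52 counts, just above the limit, and the log2 ratio of 5p over 3p was -9.15 ± 0.125, a 568-fold excess of the 3p strand. Without background subtraction the ratio of mean counts was 369.5-fold, since miR-338-5p lay close to the background. For miR-129, a neuronal miRNA, the log2 ratio was -4.50 ± 0.136: miR-129-3p had 1027, 905 and 1526 counts and miR-129-5p had 65, 51 and 81. The 5p sequence has loci on chromosomes 2 and 6, and the matched 3p sequence only that on chromosome 2. The ratio is therefore not that of a single precursor.
miR-129-5p: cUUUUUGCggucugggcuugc
miR-129-3p: aAGCCCUUaccccaaaaagcau

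miR-125a favoured the 5p strand, with a log2 ratio of 6.20 ± 0.0573. miR-340 also favoured the 5p strand, at 2.96 ± 0.238, with 1064, 922 and 1325 counts against 164, 111 and 200. miR-434, from the imprinted Dlk1-Dio3 region, favoured the 3p strand at -3.43 ± 0.115, as did miR-199a, a miRNA of mesenchymal cells, at -3.17 ± 0.563.
The smallest gaps were those of miR-142, a miRNA of blood-derived cells and microglia, and miR-384. miR-142-5p had 223, 257 and 232 counts and miR-142-3p 281, 281 and 435 (log2 ratio -0.48 ± 0.424), and miR-384 stood at 0.54 ± 0.288. miR-423 lay at 1.26 ± 0.368.
Where only 1 strand was detected, the other was set to the limit, or to its own count where that was higher, so the ratio is a bound. miR-342-3p was at least 98.6-fold higher than miR-342-5p, and miR-335-5p at least 18.4-fold higher than miR-335-3p. Of the pairs matched by name only, the endothelial miR-126-3p exceeded miR-126-5p (350, 314 and 536 counts) by 26.9-fold, miR-125b-5p exceeded miR-125b-3p (157, 146 and 177) by 155-fold, and miR-151-5p exceeded miR-151-3p (85, 74 and 127) by 68.1-fold. The miR-125b-5p sequence has loci on chromosomes 9 and 16, so its ratio need not be that of a single precursor.

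**Figure D4:**
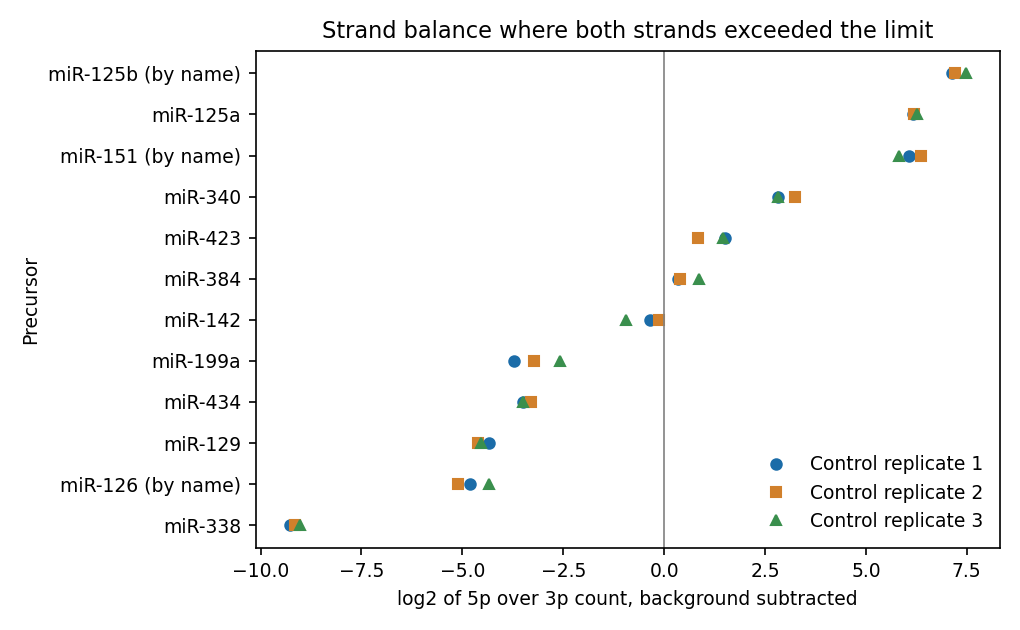
log2 of the 5p over the 3p count after background subtraction (horizontal axis) for the precursors with both strands detected (vertical axis), with a point for each Control sample and the line at 0 marking equal counts. miR-338 lies furthest towards 3p near -9 and miR-125b, a pair matched by name only, furthest towards 5p near 7. miR-142 and miR-384 lie close to 0.

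Probes that RefSeq places within 10 kb of each other on 1 strand may come from 1 transcript. Their counts, compared here as mean raw counts, ranged from near-equal to far apart. miR-451 and miR-144, made from an erythroid transcript, differed by 10.7-fold (981, 952 and 1132 against 95, 71 and 120). miR-27a exceeded miR-24 by 36.2-fold, although miR-24 has a second locus, and miR-24 itself had 141, 153 and 241 counts. miR-25 exceeded miR-106b by 11.5-fold. Other neighbours lay closer: miR-191 exceeded miR-425 by 2.14-fold and miR-142-3p exceeded miR-142-5p by 1.40-fold. miR-29b exceeded miR-29a by 1.08-fold, although miR-29b has a second locus. The neighbours let-7b and let-7c differed by 1.08-fold, but let-7c has a second locus on chromosome 16 and these probes can share signal.

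The detected miRNAs were also read by lists of miRNAs known from single tissues or cell types, which other cells can express too. Of 183 different probes on 22 lists, 64 were detected, and the share among all 566 probes was 33.2%. All 6 oligodendrocyte-lineage probes were detected and held 9.43% of the count in the mean. Their sum was 25773, 28071 and 39156 counts in replicates 1 to 3, or 8.53%, 9.29% and 10.5% of each lane's count. For 5 of the 6 the highest share was in replicate 3, as it was for 79 of all 188 detected probes. Below miR-338-3p and miR-219, miR-23a had 2905, 3619 and 4933 counts, and miR-138, which acts in early oligodendrocyte differentiation, 202, 141 and 217. All 3 miR-29 probes and both miR-126 probes of endothelium were detected as well.

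For microglia and leukocytes 6 of 9 probes were detected (66.7%, against 33.2% over the panel), with 1.49% of the count. miR-150, a lymphocyte miRNA, had 1683, 1861 and 1833 counts, and miR-342-3p had 1778, 1689 and 1909. miR-146a, a brake on NF-kB signalling, had 429, 395 and 579, and miR-223, the myeloid miRNA, 152, 205 and 208. miR-155, which rises in activated immune cells, stayed below the limit with 1, 1 and 1 counts. These counts also lay below the lowest negative control of each lane (4, 4 and 3), and how well this probe works was not tested. miR-147 and miR-342-5p were undetected too.

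Markers of red cells, smooth muscle and connective tissue each held under 1% of the count. Erythroid miR-486 had 62, 89 and 77 counts, below miR-451. The smooth-muscle miRNAs miR-145 (744, 1427 and 1470) and miR-143 (193, 376 and 388) were both low in replicate 1, by a similar proportion. Their list summed to 0.310%, 0.597% and 0.496% of the count in replicates 1 to 3. miR-199a-3p had 692, 625 and 619 counts, while miR-214 was undetected.

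Of the 14 neuronal probes 10 were detected (71.4%, against 33.2% over the panel), with 5.72% of the count. After miR-9 and miR-124 came miR-132, induced by neuronal activity, with 2340, 2003 and 2015 counts, then miR-129-3p. miR-7a (800, 516 and 568), miR-218 (526, 426 and 546) and miR-137 (521, 404 and 435) followed. miR-128 had 117, 105 and 107, miR-153 was near the limit with 27, 29 and 42, and miR-212 and miR-383 were undetected. In 7 of the 10, replicate 1 had the highest share, as it had for 70 of all 188 detected probes.

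miR-204, of pigment epithelium, choroid and meninges, had 4138, 4326 and 5819 counts. Its relative miR-211 was undetected. The sensory-cell cluster miR-96, miR-182 and miR-183, which marks photoreceptors, was undetected, with 3 to 24 counts, and so was miR-184 of cornea and lens with 10 to 14.

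Among muscle miRNAs, miR-499 had 121, 119 and 112 counts, miR-1 44, 65 and 85 and miR-206 46, 63 and 45, while miR-133a exceeded the limit in 2 of 3 lanes. miR-133b, miR-208a and miR-208b were undetected. Of the 7 epithelial probes 28.6% were detected, against 33.2% over the panel. These were miR-200b (85, 85 and 92) and miR-205 (48, 56 and 49), while miR-141, miR-200a and miR-429 were undetected. Of the gut and kidney miRNAs, miR-194 was detected and miR-192 exceeded the limit in 1 lane with 29, 28 and 42 counts.

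No member was detected on 9 lists. The liver miRNA miR-122 had 9 to 18 counts, and the pancreatic miR-375, miR-216a, miR-216b and miR-217 had 2 to 22. All 16 embryonic-stem-cell probes (miR-290 to miR-295, miR-302 and miR-367) had 1 to 19, and all 25 of an X-linked germline cluster had 1 to 23. The 6 probes of motile cilia (miR-34b, miR-34c and miR-449) had 1 to 31, and miR-483 and miR-675 of the Igf2 and H19 locus 4 to 19. Of the Hox-cluster miRNAs, which are expressed in the trunk and hindbrain, miR-10b, miR-196a, miR-196b and miR-615 had at most 17 counts, and miR-10a exceeded the limit in 2 of 3 lanes with 46, 24 and 49. These counts overlapped those of the negative controls, which ran from 3 to 30, and some lay below them. Levels below the limit were therefore not detectable rather than shown to be absent.

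**Figure D5:**
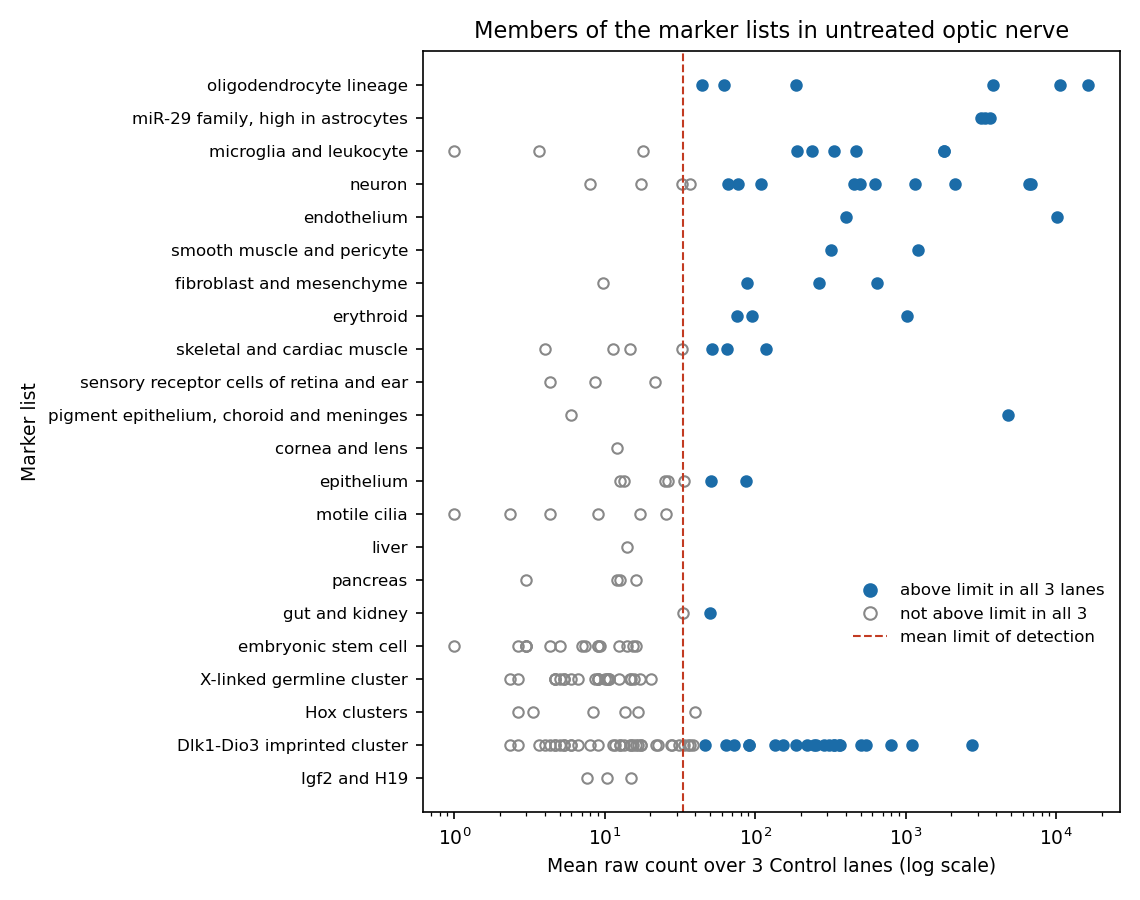
Mean raw count over the 3 Control lanes (log scale, horizontal axis) of each probe on the 22 marker lists (vertical axis). Filled points exceeded the limit in all 3 lanes, open points did not, and the dashed line is the mean limit of 33.1 counts. Glial, neuronal and vascular lists reach above 1000 counts, as do the erythroid, Dlk1-Dio3 and pigment epithelium, choroid and meninges lists. The stem-cell, germline, liver and pancreas lists lie wholly to the left of the line.

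The Dlk1-Dio3 cluster, imprinted and expressed from the maternal chromosome, had 22 of 58 probes detected (37.9%, against 33.2% over the panel) and 3.02% of the count. miR-136 led with 3110, 2452 and 2736 counts, followed by miR-382 (1256, 1000 and 1063), miR-369-3p (842, 636 and 905) and miR-434-3p (588, 391 and 650). The cluster summed to 3.56% of the count in replicate 1 and to 2.75% in each of the other 2 lanes. For 19 of the 22 detected members the highest share was in replicate 1, as it was for 70 of all 188 detected probes.

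Over the 188 detected probes, Pearson correlations of log2 counts between lanes were 0.989 to 0.993, given as a description across probes. Their differences still exceeded counting error, with chi-square values of 11.2 to 31.6 per degree of freedom for pairs of lanes. This does not tell separate animals from separate preparations of the same RNA. The CV of the share was below 10% for 70 probes, 10 to 20% for 80, 20 to 30% for 31 and higher for 7, with a median of 12.3%. let-7b (CV 0.337%), let-7f (0.677%) and miR-425 (1.70%) were among the lowest, and miR-194, at 46, 46 and 57 counts, was lowest. For each of these 4 counting error alone is larger than the observed CV, so they are not shown to be steadier than other probes. The most variable were miR-7b (115, 46 and 69 counts; CV 51.7%), miR-1983 (495, 293 and 276; 42.0%), miR-143, miR-145 and miR-7a. miR-7a and miR-7b were both highest in replicate 1.

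Near the limit of detection the calls are least firm. Just above it by mean count were miR-203, miR-770-3p, miR-467b, miR-101a and miR-2183, none of them above it in all 3 lanes. Just below were miR-192, miR-153, miR-133a, miR-670 and miR-421.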

How the data were processed

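The authors deposited a table of raw barcode counts, 1 nCounter lane per sample, per the file headers. They also deposited a table of processed signal, and how it was made is not given in the sources used here, nor are software and probe sequences. Samples were grouped by the agent label, and the 3 Control lanes were used. 1 row without a name was left out. Shares are percentages of a lane's count over 566 mouse probes, with no other scaling and no background subtraction except in strand ratios. No test was run, since nothing was compared between groups. Computations used Python 3.11.15, pandas 2.3.3, numpy 2.4.6 and scipy 1.17.1 with matplotlib 3.10.9. They were tested on simulated lanes in which probes and negative controls varied by counting error only.

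Probes were matched to RefSeq mature sequences (GRCm38.p6) by name, with the strand of a name without suffix taken from miRBase usage: 304 of 566 matched. The table is not complete, so family sums by seed can miss members, such as miR-23b, miR-30b and miR-30d. 9 probes name more than 1 miRNA. The members and marker lists were chosen with earlier results of these data known. Named miRNAs were the 20 highest shares, detected strand pairs, the 4 highest of each list, all members of lists with none detected, the 8 largest seed families, 5 probes on each side of the limit, and the 5 highest and lowest CVs; others (such as cluster neighbours and undetected list members) were chosen after their values were seen. Alternatives changed the limit, background, signal table, total and family rule, and left out each sample in turn. An interval for the share of a single lane covers counting error only. The 10 highest probes of replicate 1 held 47.7% of its count (95% Wilson interval 47.5% to 47.9%). The same shares in replicates 2 and 3, 48.7% and 48.6%, lay outside that interval.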

Additional observations from a re-analysis of the deposited data

Results flagged for a closer look

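The 4 mRNA probes of the panel, which entered no result above, exceeded the limit of detection in all 3 Control lanes. Their mean counts were 3360 for Actb (cytoplasmic actin), 856 for B2m (the light chain of MHC class I), 702 for Rpl19 (a ribosomal protein) and 297 for Gapdh (a glycolytic enzyme). Actb had 2644, 4038 and 3398 counts in replicates 1 to 3, highest in replicate 2, whereas the miRNA total was highest in replicate 3.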

How the results depend on the processing

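The number of detected probes was 179 to 195 under the other limits (188 as reported) and 190 to 195 when 1 sample was left out. The share of the 10 most abundant probes was 49.0% after background subtraction and 48.9% from the deposited signal, each more than 1 SD from 48.1%, and 47.9% to 48.4% with 1 sample left out. The let-7 share was 25.4% when the 38 probes with no RefSeq gene of their name left the total, and 23.2% to 24.2% with 1 sample left out. 11 probes held 50% under each of these settings. The median size of the strand ratio was 2.92 on the log2 scale without background subtraction, against 3.17, and no strand pair changed direction; 4 of 45 values for single pairs moved by over 1 SD, all without background subtraction (miR-125a, miR-129, miR-338 and miR-434). Without Control replicate 2, 1 Hox-cluster probe, miR-10a, was called detected; no other list count moved by over 1.5 times under these settings. No paired analysis was possible because no groups were compared. Depth and background limit what can be said of probes below about 33 counts. Named probes and the sums of the 8 largest seed families gave 179 shares together. Of these, 109 moved by over 1 SD after background subtraction and 104 with the deposited signal.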

Other observations

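Among probes outside the sets above, chosen after their values were seen, the seed AAAGUGC of the miR-17 family, which drives cell proliferation, held 0.806% ± 0.162 of the count over 4 detected probes. Its largest probe, for miR-20a and miR-20b, had 2105, 1520 and 1516 counts, highest in replicate 1. miR-21, a miRNA that rises in injured and reactive tissue, had 1112, 983 and 1960 counts and was highest in replicate 3. miR-210, a target of the hypoxia-inducible factor, had 260, 263 and 375 counts. The seed CAGUGCA of miR-148a, miR-148b and miR-152 held 0.599% ± 0.0165, with 0.588%, 0.618% and 0.592% in replicates 1 to 3. The CV of the share was 9.43% for miR-148a, 9.98% for miR-148b and 2.32% for miR-152.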
